A study of Mus musculus with 4 samples.

Results

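The miR-34 family in mouse consists of 3 hairpins, miR-34a, miR-34b and miR-34c, and its members here are the 6 mature miRNAs cut from both arms of each, taken by name from the 1907 mature miRNAs in the count files. Small RNA sequencing was done on liver of 15-week-old C57BL/6 mice in 2 groups of 2 libraries. The control group is labelled only as control, and no vehicle is named. The other group received thioacetamide (TAA), a liver toxin that injures hepatocytes and is used to produce fibrosis in rodents, at 200 mg/kg by intraperitoneal injection 3 times a week for 10 weeks. The comparison asks how hepatic miRNA levels differ after TAA. The design text calls the libraries biological replicates without naming animals, so the p-values measure the spread between these libraries.

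A miRNA is cut from a hairpin whose arms give a 5p and a 3p product, and one of them is usually kept and guides the silencing complex to mRNAs that pair with its seed, bases 2 to 8. The miR-34 genes are direct transcriptional targets of p53, and their 5p products repress mRNAs of cell-cycle and survival proteins such as CDK6, MYC, BCL2 and SIRT1. In most adult tissues miR-34a is the main member, while miR-34b and miR-34c come from 1 shared primary transcript and are best known from testis, lung and other tissues with multiciliated cells. In liver, miR-34a has been studied in fatty liver disease, ageing and fibrosis.

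The mature sequences below show which members read the same target sites, with the seed in capitals. They come from RefSeq (GRCm38.p6), where 5 of the 6 members matched by name, the exception being miR-34c-5p, and the miR-449 arms with the same seed are set beside them.
miR-34a-5p: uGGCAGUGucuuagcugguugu
miR-34b-5p: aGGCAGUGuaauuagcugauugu
miR-449a-5p: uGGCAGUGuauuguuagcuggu
miR-449c-5p: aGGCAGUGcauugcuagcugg
miR-34a-3p: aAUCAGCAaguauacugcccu
miR-34b-3p: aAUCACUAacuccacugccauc
miR-34c-3p: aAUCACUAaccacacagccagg

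By seed, these fall into 3 groups. The seed GGCAGUG was shared by miR-34a-5p, miR-34b-5p, miR-449a-5p and miR-449c-5p, and by no other mature miRNA with a RefSeq entry. The sequence of miR-34c-5p was missing there, so its seed was not compared. Its absence from this group does not mean that its seed differs. miR-34b-3p and miR-34c-3p shared AUCACUA, and miR-34a-3p alone had AUCAGCA. Compared position by position from the 5′ end without gaps, miR-34b-3p and miR-34c-3p were identical at 17 of 22 positions, and miR-34a-5p and miR-34b-5p at 11 of 22. The value of the 5p pair understates its likeness. miR-34b-5p is 23 bases long against 22, and its extra base shifts the later positions, which then count as mismatches. No source used here states how the authors' counting divided reads between such similar arms, so the split between miR-34b and miR-34c is uncertain.

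The hairpins lie at 2 loci. Mir34a is on the plus strand of chromosome 4 (GRCm38, 150068454 to 150068555), and its last 17 bases overlap an exon of Gm37795, an unreviewed transcript model on the same strand. Mir34c (51103034 to 51103110) and Mir34b (51103562 to 51103645) are on the minus strand of chromosome 9 with 451 bases between them. Both lie inside Btg4, a gene of the opposite strand, and overlap none of its exons.

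The libraries held 42609845 to 48878003 miRNA counts, so that 1 count was worth 0.0205 to 0.0235 CPM, the count scaled to a common library size, before normalization factors. The CPM given from here on include TMM factors and are shown as mean ± SD over n = 2 libraries. The 5 members with a printed sequence are 21 to 23 bases long. CPM are not scaled by length, and how evenly the libraries captured different sequences was not measured. Levels of different members are therefore compared as read counts only. The hepatocyte miRNA miR-122-5p measured 18285 and 21608 CPM in the controls and 17376 and 17500 CPM after TAA. For all 4 hepatocyte markers both TAA libraries lay below both controls, as they did for 25.6% of all miRNAs tested, and the median of their log2 fold changes was -0.18, but none passed the edgeR test below; 1 had an unadjusted p under 0.05. Both DESeq2 and limma-voom also called 0 of these markers.

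Both main products of the family rose after TAA. miR-34a-5p rose 2.37-fold and miR-34c-5p 2.84-fold, and miR-34b-3p, at under 1 CPM in each library, rose 4.81-fold. In total 3 of the 6 members were higher and 0 were lower in edgeR (quasi-likelihood test, p-values adjusted by Benjamini-Hochberg across all 644 miRNAs tested, threshold 0.05). Of all miRNAs tested, 14% were called higher and 2.64% lower. One of the 3, miR-34b-3p, passed the filter on low counts only through the TAA libraries, so its entry into the test was not independent of its direction. Many of all those called higher are neighbours in the imprinted Dlk1-Dio3 interval of chromosome 12, and outside that interval 4.86% of miRNAs were called higher. At an unadjusted p under 0.05, 4 members were higher and 0 lower, where 18% of all miRNAs were higher.

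mmu-miR-34a-5p, the guide strand of miR-34a, was the most abundant member in every library. It had 1634 and 1131 counts in controls 1 and 2, and 3689 and 3756 in TAA 1 and TAA 2. In CPM these were 38.6 and 26.5 against 81.2 and 73.2. Both TAA libraries lay well above both controls, and the controls differed more from each other than the TAA libraries did. The group means were 32.5 ± 8.58 CPM and 77.2 ± 5.62 CPM. In edgeR this was a log2 fold change of 1.25 with an SE of 0.21 (adjusted p = 0.00367) and a 95% interval of 1.71- to 3.30-fold. By abundance it was the 180th and 197th of 1907 miRNAs in the controls and the 151st and 156th after TAA.

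mmu-miR-34c-5p was the second most abundant, with 389 and 345 counts in controls 1 and 2 against 1293 and 1054 in TAA 1 and TAA 2. It measured 9.19 and 8.07 CPM in the controls, which lay close together, and 28.4 and 20.5 CPM after TAA. The group means were 8.63 ± 0.79 CPM and 24.5 ± 5.59 CPM, and edgeR gave a log2 fold change of 1.505 with an SE of 0.22 (adjusted p = 0.00172) and a 95% interval of 2.002- to 4.02-fold. It was the one member that passed the threshold without any single library, with an adjusted p of 0.0329 without TAA 1 and 0.00870 without TAA 2. miR-34a-5p did not pass without TAA 1 (log2 fold change 1.17, adjusted p = 0.109) or without TAA 2 (1.32, adjusted p = 0.0646), although its fold change stayed within 1.5 times.

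mmu-miR-34b-5p, which carries the same seed as miR-34a-5p, was far scarcer. It had 27 and 17 counts in the controls and 67 and 54 in the TAA libraries, or 0.64 and 0.40 against 1.47 and 1.05 CPM. The groups did not overlap, but the difference missed the threshold (log2 fold change 1.28, SE 0.41, edgeR adjusted p = 0.0811). It passed with library size alone (adjusted p = 0.0334), with no filter on low counts (0.0275), and without control 1 (0.0122). In those fits 16.6%, 8.36% and 13.7% of all miRNAs were called higher.

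**Figure D1:**
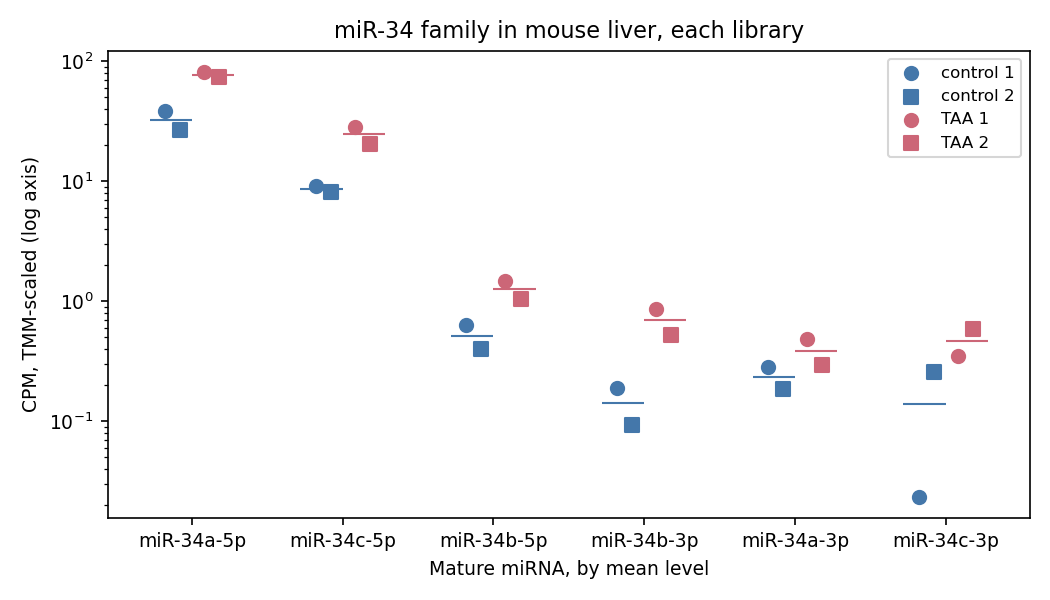
CPM of each miR-34 member on a log axis, one point per library, with control libraries in blue, TAA libraries in red and group means as lines. Both TAA points lie above both control points for each of the 6 members, narrowly for miR-34a-3p (0.283 CPM in control 1 and 0.292 in TAA 2), and levels range from 0.0236 CPM for miR-34c-3p to 81.2 CPM for miR-34a-5p.

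The 3p arms were measured by few reads. mmu-miR-34b-3p had 8 and 4 counts in the controls and 39 and 27 in the TAA libraries. The exact 95% Poisson intervals, which cover counting error only, ended at 15.8 and 10.2 in the controls and began at 27.7 and 17.8 after TAA. Its log2 fold change was 2.27 (SE 0.57, edgeR adjusted p = 0.0286), with a 95% interval of 1.94- to 12.0-fold. Only its TAA libraries reached the level that the filter on low counts asks for, so it could enter the test only through the group where it was high; with no filter its adjusted p was 0.00351. It did not pass without control 2 (1.84, adjusted p = 0.0607), without TAA 1 (1.88, 0.351), without TAA 2 (2.59, 0.149), or with the Dlk1-Dio3 miRNAs removed (2.30, 0.0918).

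The remaining arms did not pass. mmu-miR-34c-3p had 1 and 11 counts in the controls and 16 and 30 after TAA. The 1 count in control 1 has an exact Poisson interval of 0.0253 to 5.57, and the log2 fold change of 1.72 (SE 0.79, edgeR adjusted p = 0.221) rests on it: the value was 4.16 (adjusted p = 0.00679) without control 2, where 14.2% of all miRNAs were called higher, and 0.85 without control 1. mmu-miR-34a-3p had 12 and 8 counts in the controls and 22 and 15 after TAA, and its log2 fold change of 0.71 with an SE of 0.54 had an edgeR adjusted p of 0.481. Its 95% interval ran from 0.69- to 3.88-fold, which includes both no change and the fold change of miR-34a-5p.

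All 6 members had both TAA libraries above both controls; of all miRNAs tested, 29.7% did. The median log2 fold change of the members was 1.39, against -0.0042 over all 644. The filter on low counts bears on both values. For miR-34a-3p and miR-34c-3p 1 control reached its level, and for miR-34b-3p 0 did, against 2 TAA libraries for each. These 3p arms needed the TAA libraries to enter the test, so their entry was not independent of direction. In the order of log2 fold changes over those 644, the members stood between the 71st place for miR-34b-3p and the 121st for miR-34a-3p. Members cut from 1 hairpin or 1 transcript are not independent measurements.

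**Figure D2:**
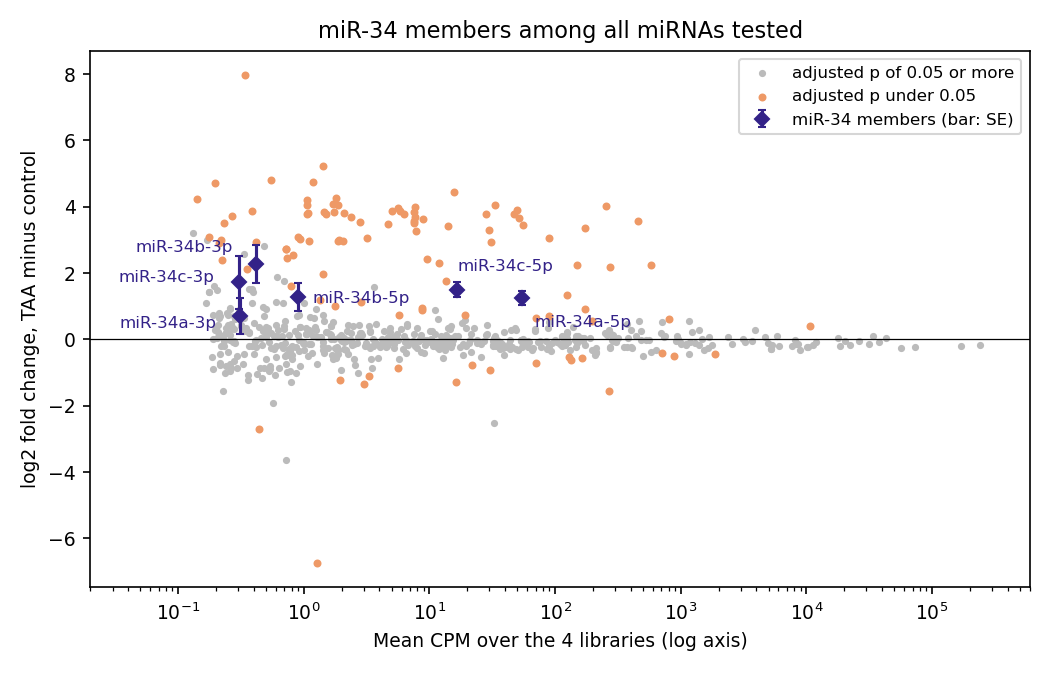
log2 fold change (TAA minus control) against mean CPM on a log axis for the 644 miRNAs tested, with the miR-34 members as diamonds with SE bars. The members lie above the bulk of miRNAs at their level, between 0.71 and 2.27, with wide bars for the 4 members under 2 CPM.

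In order of level, miR-34a-5p stood above miR-34c-5p and miR-34c-5p above miR-34b-5p in each group with no overlap between libraries. The 3p arms below them mostly overlapped. In the controls miR-34a-3p (0.19 to 0.28 CPM), miR-34b-3p (0.094 to 0.19 CPM) and miR-34c-3p (0.024 to 0.26 CPM) overlapped. After TAA, miR-34b-3p (0.53 to 0.86 CPM) overlapped with miR-34c-3p (0.35 to 0.58 CPM), and miR-34c-3p with miR-34a-3p (0.29 to 0.48 CPM), while miR-34b-3p lay above miR-34a-3p.

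The groups were separate in the size of the family's 5p pool and overlapped in its makeup. The 5p arms of the 3 hairpins together measured 48.4 and 34.9 CPM in the controls and 111 and 94.8 CPM after TAA, 2.47-fold higher by the means. miR-34a-5p was 79.7% and 75.8% of these counts in the controls and 73.1% and 77.2% after TAA, and miR-34c-5p 19.0% and 23.1% against 25.6% and 21.7%. miR-34b-5p contributed 1.11% to 1.33% in the 4 libraries. The groups overlapped in each of these shares.

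Ratios within a library do not depend on the normalization, and 6 of them were compared. The log2 ratio of miR-34a-5p to miR-34c-5p was 2.07 and 1.71 in the controls and 1.51 and 1.83 after TAA. The change of -0.22 had a two-sided exact permutation p of 0.667, where 0.333 is the smallest that 2 libraries against 2 allow, so this design cannot reach 0.05. Across the shared transcript of chromosome 9, miR-34c-5p exceeded miR-34b-5p 14.2- and 19.7-fold in the controls and 19.2- and 19.3-fold after TAA (exact permutation p = 1). Their 3p arms gave ratios of miR-34c-3p to miR-34b-3p of 0.18 and 2.56 in the controls and 0.42 and 1.11 after TAA, which overlap. The Benjamini-Hochberg adjusted p of all 6 ratios was 1.

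The ratio of reads from the 5p and 3p arms differed between the hairpins. The 5p count was 131 to 242 times the 3p count for miR-34a, but 1.71 to 3.89 times for miR-34b, after 0.5 was added to each count. For miR-34b the ratio was 3.24 and 3.89 in the controls and 1.71 and 1.98 after TAA, a log2 change of -0.95. For miR-34a it was 131 and 133 in the controls and 164 and 242 after TAA, a log2 change of 0.60. The groups did not overlap in either ratio, and each had an exact permutation p of 0.333, the smallest possible here. How many of all hairpins separate in this way was not counted. The miR-34c ratios ran from 30.04 in control 2 to 260 in control 1, with both TAA libraries between them.

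None of the 3 hairpins reached the mean of 20 counts in each arm that the arm test asks for, so these ratios have no test at that minimum. With a minimum of 5 counts, limma called 0 of 198 hairpins (0%), of which 14 had an unadjusted p under 0.05. There the log2 change was -0.95 for miR-34b (SE 0.21, limma unadjusted p = 0.0116, adjusted p = 0.607), 0.60 for miR-34a (SE 0.27, adjusted p = 0.925) and -0.76 for miR-34c (SE 1.20, adjusted p = 0.957). With 5 added to each count in place of 0.5, the change of miR-34b was -0.50.

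**Figure D3:**
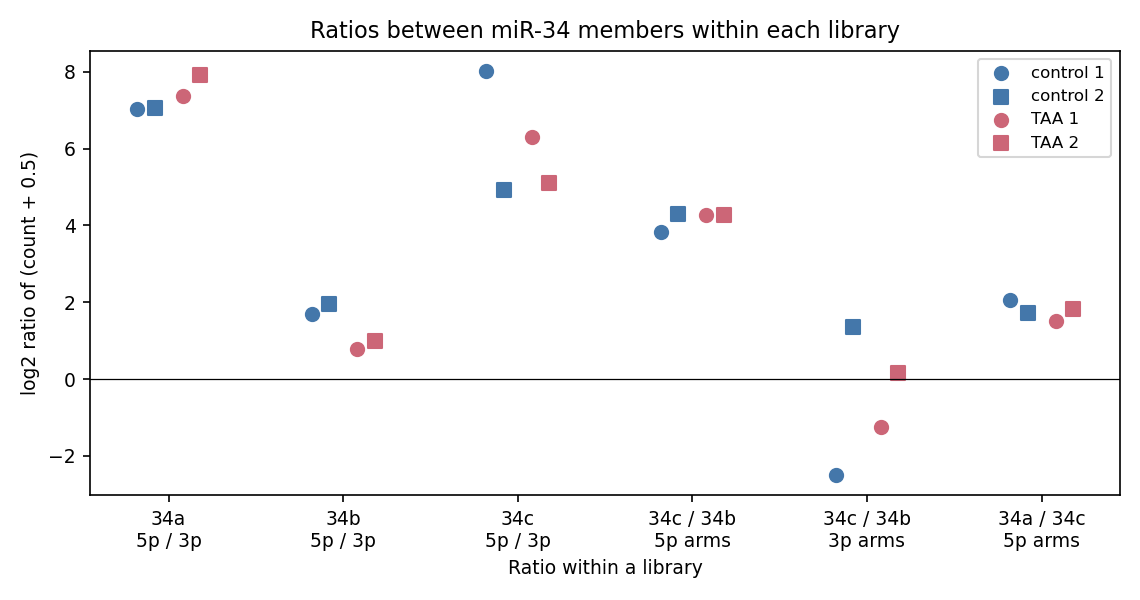
log2 ratios of counts plus 0.5 within each library, for the arms of each hairpin and between hairpins, with controls in blue and TAA libraries in red. The arms of miR-34b lie lower in both TAA libraries (0.77 and 0.99) than in both controls (1.69 and 1.96). Those of miR-34a lie higher in both TAA libraries (7.36 and 7.92) than in both controls (7.03 and 7.06). The miR-34c to miR-34b ratio of 5p arms stays between 3.82 and 4.30.

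The seed relatives of the 5p arms, miR-449a and miR-449c, are the miRNAs of multiciliated epithelium. They had few reads, with 1, 2, 11 and 2 counts of miR-449a-5p and 1, 2, 3 and 1 of miR-449c-5p in controls 1 and 2 and TAA 1 and 2. miR-449b had no count in any library. A limit of 3 counts would be 0.0614 to 0.0704 CPM before scaling, and the exact 95% Poisson interval of a 0 count ends at 3.69 counts. None of them passed the filter. Because its sequence was missing, miR-34c-5p is left out of the next sum, which need not hold the whole pool of that seed. The 4 mature sequences printed above with the seed GGCAGUG summed to 39.3 and 26.9 CPM in the controls and 82.9 and 74.3 CPM after TAA. With miR-34c-5p added, a sum chosen after the data were seen, these were 48.5 and 35.02 CPM against 111 and 94.9 CPM.

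Some markers of other cells rose in the same libraries. Of 7 leukocyte miRNAs 3 rose, miR-150-5p, miR-155-5p and miR-342-3p, and 0 fell. The groups overlapped for miR-223-3p and miR-146a-5p. The summed level of the 7 was 1216 and 1808 CPM in the controls and 2501 and 2070 CPM after TAA. Most of that sum was miR-142a-5p, which was not called (706 and 1164 CPM against 1488 and 1290 CPM). Of 4 erythroid miRNAs 4 rose, from 325 and 196 to 530 and 1926 CPM, most of it in TAA 2, and none passed without TAA 2 or in DESeq2. Of 5 mesenchymal miRNAs 1 rose, miR-214-3p, and their sums overlapped between groups; none rose without TAA 1, without TAA 2, without control 2 or with the Dlk1-Dio3 miRNAs removed. Of 2 endothelial, 5 epithelial and 1 neuronal miRNAs tested, 0 rose, and 2 of the epithelial ones fell, where 2.64% of all miRNAs did. These counts stand against the 14% of all miRNAs called higher. With the Dlk1-Dio3 miRNAs removed, 2 leukocyte and 0 erythroid miRNAs rose, where 1.22% of all miRNAs were called higher. The 3 ciliated-cell markers, the miR-449 products above, summed to at most 0.308 CPM against 20.5 to 28.4 CPM of miR-34c-5p after TAA. In whole liver a change in the number of cells of a type and a change in RNA per cell cannot be told apart, and the part of leukocytes and red cells in the rise of miR-34 was not tested.

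None of the other listed p53-linked miRNAs tested was called higher. The miR-149 hairpin entered the p53-induced list only as miR-149-3p, which did not pass the filter. Its other arm, miR-149-5p, was not listed, and edgeR called it higher (adjusted p = 0.00454). That arm measured 117 and 120 CPM in the controls and 197 and 254 CPM after TAA. Whether p53 had a part in its rise was not tested. Of 13 miRNAs listed as induced or processed under p53, 12 were in the files and 11 were tested; 0 were called higher and 2 lower, with a median log2 fold change of -0.19. At an unadjusted p under 0.05, 4 were lower, against 7.61% of all miRNAs, and in 7 both TAA libraries lay below both controls, against 25.6%. This list shares miR-192-5p and miR-194-5p with the hepatocyte markers, and miR-143-3p and miR-145a-5p with the mesenchymal ones. Its counts are therefore not independent of theirs. Of the p53-induced list, DESeq2 and limma-voom also called 0 higher, with 3 and 2 lower. Over all miRNAs they called 12.3% and 14% higher and 3.26% and 2.48% lower. The most abundant, miR-192-5p, a hepatocyte miRNA reported to stabilize p53, measured 254655 ± 13829 CPM in the controls against 228492 ± 4868 CPM after TAA, a log2 fold change of -0.16 with an SE of 0.09.

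Those that fell were miR-141-3p and miR-200c-3p, members of the epithelial miR-200 family that are cut from neighbouring hairpins and repress ZEB1 and ZEB2. Both are also among the epithelial markers. The other 3 of those markers, miR-200a-3p, miR-200b-3p and miR-429-3p, were not called (log2 fold changes -0.071, -0.16 and -0.020). miR-141-3p measured 76.5 and 98.7 CPM in the controls and 54.6 and 51.4 CPM after TAA (log2 fold change -0.72 with an SE of 0.17, edgeR adjusted p = 0.0232). miR-200c-3p measured 8.22 and 6.20 CPM in the controls and 4.27 and 3.72 CPM after TAA (log2 fold change -0.85, SE 0.22, edgeR adjusted p = 0.0335). Neither was called without TAA 1, without TAA 2, or with the Dlk1-Dio3 miRNAs removed, and 1 of them was called without control 1 and 1 without control 2.

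Of the 6 miRNAs of the miR-17 cluster, reported to be repressed by p53, none was called by edgeR, DESeq2 or limma-voom. In edgeR 0 had an unadjusted p under 0.05, and the median log2 fold change was -0.18. Both TAA libraries lay above both controls for 1 of them, miR-18a-5p (log2 fold change 0.33), and below for 2. Of all miRNAs 29.7% lay above and 25.6% below. Without control 2, 2 were called lower, against 4.78% of all miRNAs. The most abundant, miR-92a-3p, measured 17593 ± 1258 CPM in the controls against 18233 ± 932 CPM after TAA. Of 5 miRNAs reported to target the p53 mRNA, 4 were tested and none was called by any of the 3 tools, again with 0 at an unadjusted p under 0.05. miR-30d-5p, the most abundant of them, measured 11844 ± 127 CPM in the controls against 10650 ± 160 CPM after TAA. Over all miRNAs edgeR called 14% higher and 2.64% lower, and at an unadjusted p under 0.05 18% were higher and 7.61% lower. With 6 and 4 miRNAs tested in these lists, 0 calls cannot be told apart from such shares.

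**Figure D4:**
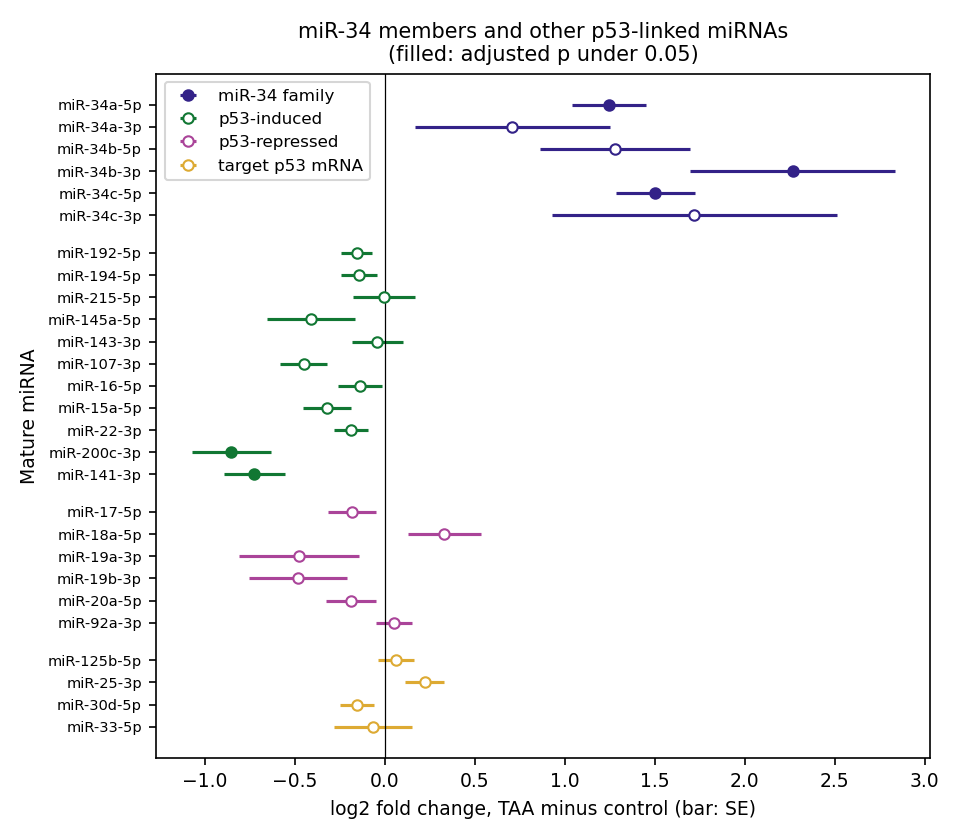
log2 fold changes (TAA minus control) with SE bars for the miR-34 members and the tested miRNAs of 3 other p53-linked lists, filled where the adjusted p was under 0.05. The 6 miR-34 values lie between 0.71 and 2.27, and the p53-induced miRNAs between -0.85 and -0.0043.

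The miRNAs with the profile most like miR-34a-5p were found by the root mean square distance between centred log2 CPM over the 4 libraries, among 271 others of at least 10 CPM on average. The distance between miR-34a-5p and miR-34c-5p was 0.20, and the median distance of the 271 was 0.72 from miR-34a-5p and 0.82 from miR-34c-5p. miR-150-5p, which is abundant in resting lymphocytes, was nearest to both, at 0.25 and 0.18. It measured 67.4 and 74.6 CPM in the controls and 188 and 172 CPM after TAA. Next to miR-34a-5p came miR-199b-5p, miR-149-5p, miR-214-3p and miR-214-5p, at 0.32 to 0.38. Next to miR-34c-5p came miR-199b-5p, miR-146b-5p, miR-342-3p and miR-149-5p, at 0.37 to 0.42. Over 4 libraries any miRNA that rose by a similar factor comes out as near, so this describes the libraries only.

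The size of the change held over the other ways of fitting. With all 4 libraries the log2 fold change of miR-34a-5p lay between 1.09 and 1.36 and that of miR-34c-5p between 1.34 and 1.62 over other scalings, filters and tests, and both passed in each of them. The lowest came from upper-quartile factors, which moved the median of all miRNAs to -0.17, and the highest from library size alone, which moved it to 0.12. With the Dlk1-Dio3 miRNAs removed, 1.22% of miRNAs were called higher, and miR-34a-5p (adjusted p = 0.0412) and miR-34c-5p (adjusted p = 0.0170) were among them. Without TAA 1 or without TAA 2, where 7.53% and 6.87% of miRNAs were called higher, miR-34c-5p was the 1 member called.

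**Figure D5:**
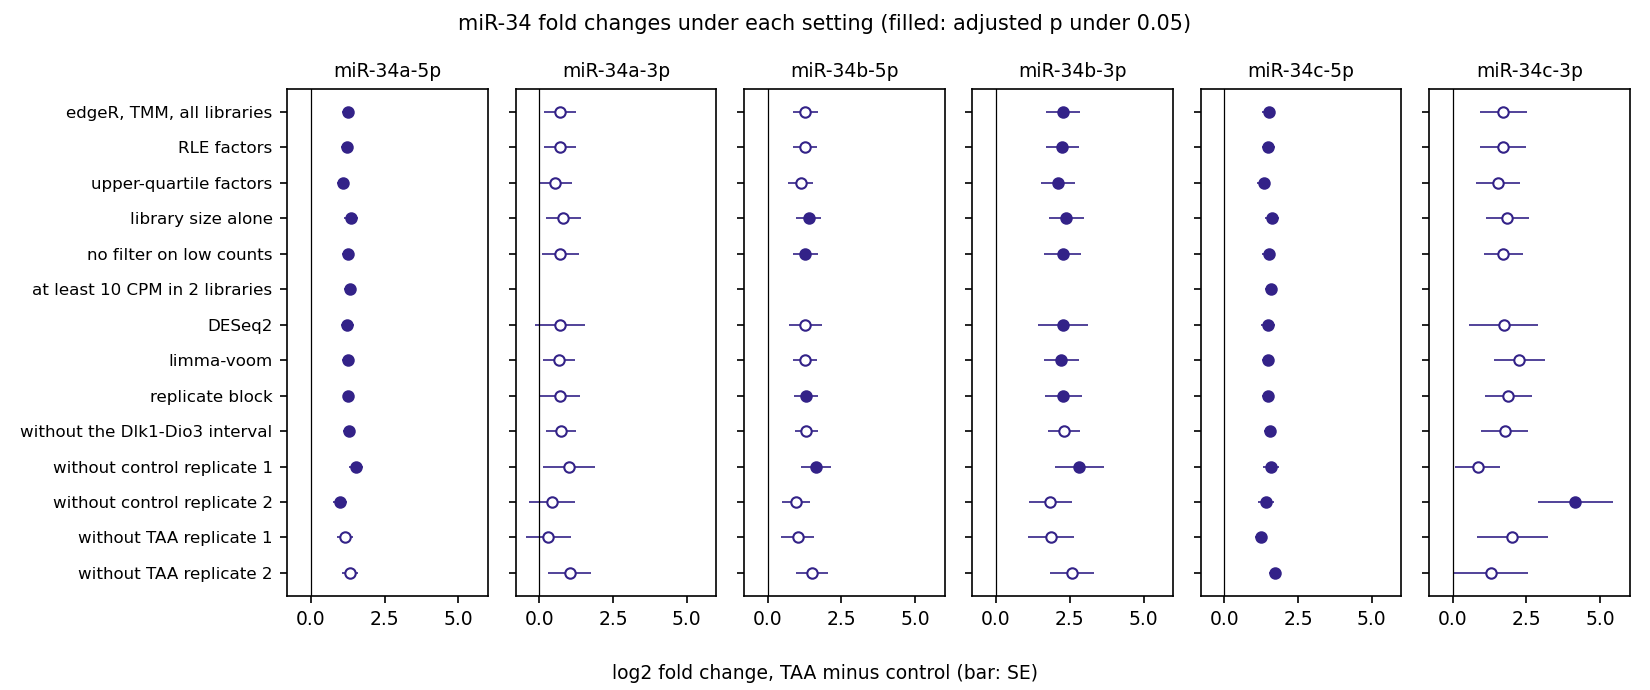
log2 fold change with SE for each member under each setting, filled where the adjusted p was under 0.05; members filtered out have no point. miR-34c-5p is filled in all rows and miR-34a-5p in all but those without a TAA library, and no value lies below 0.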

How the data were processed

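Each deposited file gives the raw count of reads for every mature miRNA in 1 library, made from miRNeasy RNA and TruSeq small RNA libraries per the labels' protocols. Bowtie, HTSeq and mm10 are named in the submitters' processing notes; versions, adapter trimming, the miRNA annotation and the handling of reads with several matches are named in none of the sources used here. The 5 summary rows of each file were left out; reads outside annotated miRNAs made up 22.8% to 26.4%.

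Samples were grouped by the treatment label. The whole count table was fitted in edgeR 4.0.16 under R 4.3.3 (filter by filterByExpr, TMM factors, quasi-likelihood F test), and p-values were adjusted by Benjamini-Hochberg across 644 miRNAs. The SE is the log2 fold change divided by the square root of F. Arm ratios were tested with limma 3.58.1. The procedures were tested on simulated data. Alternatives included DESeq2 1.42.0, limma-voom, other scalings and filters, and each library left out. GENCODE M21 and RefSeq, both of GRCm38 (mm10), gave positions and sequences. The replicates differed by far more than sampling noise (chi-square of 237 and 324 per degree of freedom). No batch is named in the labels.

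The members, the lists and the tests were chosen with earlier results of these data known. The naming rule took all members, their seed relatives, the called and the most abundant miRNAs of each p53-linked list, and the 5 nearest profiles. miR-605-5p is not analysed here; miR-149-3p and miR-504-5p did not pass the filter.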

Additional observations from a re-analysis of the deposited data

How the results depend on the processing

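Of 6 members, 3 were called higher with all libraries, where 14% of all miRNAs were. The count was 2 to 4 in the other fits with all libraries, and 0 were lower in each. In those fits the share of all miRNAs called higher ran from 1.22% (Dlk1-Dio3 miRNAs removed) to 16.6% (library size alone). Leaving out a library put the log2 fold change between 0.99 and 1.53 for miR-34a-5p, 0.31 and 1.04 for miR-34a-3p, 0.97 and 1.64 for miR-34b-5p, 1.84 and 2.83 for miR-34b-3p, 1.25 and 1.73 for miR-34c-5p, and 0.85 and 4.16 for miR-34c-3p. miR-34b-5p passed with library size alone (1.39), with no filter (1.28) and with the replicate number as a block (1.30, adjusted p = 0.0437), which called 4 members and 92 of 644 miRNAs higher; the block changed no other member's call. Samples with the same number did not deviate together (r = -0.053 across 644 miRNAs), so the numbers were not used as pairs. Once the Dlk1-Dio3 miRNAs were removed, miR-34b-3p (2.30) missed the threshold. With a minimum of 10 CPM in 2 libraries, only miR-34a-5p and miR-34c-5p could be tested. The p53-induced miRNAs called lower numbered 0 at that minimum, 0 without the Dlk1-Dio3 miRNAs and 0 to 3 with a library left out, against 2. Of the miR-17 cluster, 1 was called lower with no filter and 0 to 2 with a library left out. The arm ratio change of miR-34b was -0.50 with 5 added to each count and -1.08 to -0.81 with a library left out; that of miR-34c ran from -2.32 to 0.79 and its direction is not settled. The summed seed level without miR-34c-5p changed by 1.001 to 1.54 (log2) with a library left out and by 1.25 with all; with miR-34c-5p added it changed by 1.30. The cause of these differences was not tested beyond the fewer samples of the fits that leave out a library, where the lone library is assumed to vary like the other group. Depth limits the 3p arms, at 1 to 39 counts.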

Other observations

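miR-449a-5p had 11 counts in TAA 1 (exact 95% Poisson interval 5.49 to 19.7) against 1, 2 and 2 in control 1, control 2 and TAA 2, where the intervals reach 5.57 and 7.22. TAA 1 also held more miR-34c-5p (28.4 CPM) and miR-34b-5p (1.47 CPM) than TAA 2 (20.5 and 1.05 CPM). This was not particular to the chromosome 9 members. TAA 1 also exceeded TAA 2 for miR-34a-5p (81.2 against 73.2 CPM), miR-34a-3p (0.48 against 0.29 CPM) and miR-34b-3p (0.86 against 0.53 CPM). Only miR-34c-3p was lower in TAA 1 (0.35 against 0.58 CPM). These are single libraries, and no test was made.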
